A study of Mus musculus with 2 samples.

Results

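The genes described here are the enzymes and the chaperone that fold, hydroxylate and crosslink collagen: Lox, Loxl1, Loxl2 and Loxl3, Plod1, Plod2 and Plod3, P4ha1, P4ha2 and Serpinh1. They were chosen by name, and every probe set annotated to exactly 1 gene symbol, that symbol being on the list, was taken, whatever its level. This gave 16 probe sets for 9 of the 10 genes, out of 34958 probe sets with 1 symbol for 18194 genes. Loxl2 has no value, because its 2 probe sets are annotated to a further gene as well. The last gene on the list, Serpinh1, encodes a chaperone and not an enzyme.

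Messenger RNA was measured in the proximal intestine (the upper part of the gut) of chow-fed C57BL/6 mice, either wild type (WT) or with a germline deletion of Cd36 (CD36KO). CD36 is a scavenger receptor of the cell surface that takes up fatty acids and binds thrombospondin. RNA of 3 animals per genotype was pooled and hybridized to 1 array, so each group is a single measurement and the deletion is present in every cell type of the CD36KO animals. Age is not stated in the labels. These genes bear on the disruption of intestinal matrix that the series title speaks of.

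Collagen is made in the endoplasmic reticulum, where prolyl 4-hydroxylases (alpha subunits P4ha1 and P4ha2) modify prolines so that the helix is stable at body temperature, and lysyl hydroxylases (Plod1 to Plod3) modify lysines that later form crosslinks. The chaperone HSP47, the product of Serpinh1, binds the folded procollagen helix and escorts it out of the compartment. Outside the cell the copper enzymes of the lysyl oxidase family (Lox and the Loxl genes) oxidize lysines of collagen and elastin, which then react into covalent crosslinks. In the gut wall these proteins are made mainly by fibroblasts and smooth muscle cells.

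With 1 array per genotype no test could be run, no p-value is given and no difference could be set against the spread between animals or arrays. All values are deposited log2 values, a difference is CD36KO minus WT, and a fold is the larger over the smaller value after undoing the logarithm. Levels of different probe sets are not comparable, and precision is limited by the number of arrays. The median over all probe sets was 4.38 on both arrays. Cd36 was 2.33-fold to 3.56-fold lower in the CD36KO pool at its 3 probe sets. The WT values were 7.70, 7.68 and 4.74 and the CD36KO values 5.87, 6.02 and 3.52, so signal above the expression filter defined next remained at 2 of them. How the probe sets lie relative to the deleted part was not given here. The 9 markers of the intestinal epithelium that could be named on the array were all above the expression filter of 4.51, the median over all probe sets of the higher of the array values, which is no detection call. The RNA differed in coverage: for the beta-actin control the 3' probe set exceeded the 5' probe set by 2.28 in WT and by 1.34 in CD36KO. For the GAPDH control the excess was 1.28 and 0.71. Spiked-in hybridization controls read lower in CD36KO at 18 of 18 probe sets, with a median of -0.28, and poly-A controls at 23 of 24, with a median of -0.57. The part of these differences in the results below was not tested.

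Most of the genes were modestly higher in the CD36KO pool. Taking for each gene the probe set with the highest mean, 8 of 9 genes read higher and 1, P4ha2, lower (Lox and P4ha2 being below the filter), and the differences ran from -0.21 to 0.85 with a median of 0.34 (1.27-fold). The median over all 18194 genes was -0.0098, and 47.8% of them were higher in CD36KO. Loxl1 and P4ha1, 2 of the 9, were at least 1.5-fold higher, against a background of 3.81% of all genes, and 0 were at least 1.5-fold lower, against 2.6%. Counted by probe set, 12 of 16 were higher and 3 were at least 1.5-fold higher, against 4.4% of all probe sets with 1 symbol, and 0 were at least 1.5-fold lower, against 2.52%. At a lower threshold of 0.32 (log2) 5 genes were higher, against 12.2% of all genes, and 7 probe sets, against 13%. At 2-fold 0 genes and 0 probe sets were higher, against 1.09% and 1.15%. Probe sets of 1 gene measure the same RNA and are not replicates. The median depended on the probe set taken: it was 0.23 with the mean over each gene's probe sets and 0.071 with the probe set of smallest difference, with which 0 genes were at least 1.5-fold higher. By the mean over probe sets Loxl1 (0.62) and Serpinh1 (0.69) were at least 1.5-fold higher, and P4ha1 (0.38) was not.

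**Figure D1:**
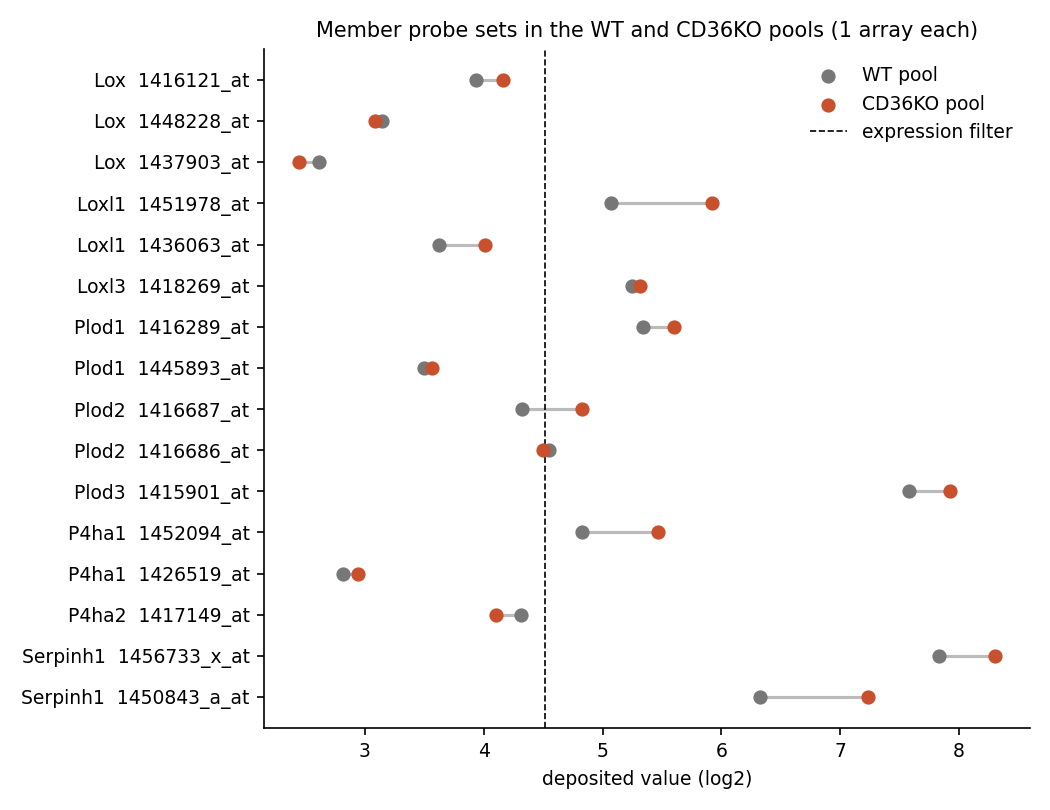
Deposited log2 values (horizontal axis) of the 16 member probe sets (rows) in the WT pool (grey) and the CD36KO pool (red), 1 array each, with no error bars because there is no replicate. The red point lies to the right at 12 probe sets, furthest for Serpinh1 (6.33 to 7.23) and Loxl1 (5.07 to 5.92), and 7 probe sets lie left of the dashed expression filter at 4.51 in both pools.

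Among the lysyl oxidases, Loxl1 was higher at its probe set above the filter, Loxl3 was nearly level and Lox was below the filter. Loxl1, an oxidase known for crosslinking elastin, read 5.07 in WT and 5.92 in CD36KO at the probe set of higher level (1451978_at), a difference of 0.85 or 1.80-fold. A difference as high or higher was found for 2.21% of the 11981 genes past the filter. Its other probe set (1436063_at) was below the filter and read 3.63 in WT and 4.01 in CD36KO. This difference of 0.38 has the same sign but cannot be told from background at this level.

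Lox, the founding member that acts on collagen and elastin, was below the filter at all 3 probe sets in both pools. The highest of them (1416121_at) read 3.94 in WT and 4.16 in CD36KO, a difference of 0.22. The others (1448228_at and 1437903_at) read 3.14 and 3.09, and 2.62 and 2.44, with differences of -0.06 and -0.17. The sign for Lox therefore depends on the probe set, and a difference in Lox was not detectable at this signal. Loxl3, a further oxidase of the family, was above the filter and nearly level, at 5.25 in WT and 5.32 in CD36KO, 1.05-fold higher.

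The lysyl hydroxylases were slightly higher at most probe sets. Plod3 encodes the enzyme that also attaches glucose to hydroxylysine, and it read 7.58 in WT and 7.92 in CD36KO, a difference of 0.34 or 1.27-fold. A difference as high or higher was found for 13.6% of genes past the filter. Plod1, which hydroxylates lysines of the helix, read 5.34 in WT and 5.60 in CD36KO, a difference of 0.27, and 3.49 and 3.56 at its second probe set, which was below the filter.

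Plod2, the enzyme that hydroxylates lysines of the collagen telopeptides, gave contradictory readings. The probe set with the slightly higher mean (1416687_at) read 4.32 in WT and 4.83 in CD36KO, a difference of 0.50 (1.42-fold), and passed the filter through the CD36KO pool alone. The other (1416686_at) read 4.55 in WT and 4.50 in CD36KO, a difference of -0.05, and passed it through the WT pool alone. Both lie next to the filter, and the spread of 0.55 between the readings was the widest within any of the 6 members with several probe sets.

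Of the prolyl 4-hydroxylase subunits, P4ha1 was higher at its probe set above the filter and P4ha2 was below the filter. P4ha1, the widely expressed catalytic subunit, read (at 1452094_at) 4.83 in WT and 5.47 in CD36KO, a difference of 0.64 or 1.56-fold, just past the 1.5-fold line. Of the genes above the filter 4.48% were as high or higher. Its second probe set was far below the filter, at 2.82 in WT and 2.94 in CD36KO. This difference of 0.12 cannot be told from background. P4ha2, the alternative catalytic subunit, was below the filter at its single probe set and read 4.31 in WT and 4.10 in CD36KO, a difference of -0.21, the lowest of all the members; at this level its direction cannot be told from background. P4hb, protein disulfide isomerase and the shared beta subunit of both enzymes, is named here after its values were seen. It read 12.70 in WT and 12.60 in CD36KO, so the partner subunit was not higher where P4ha1 was.

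Serpinh1 was higher at both of its probe sets. The one of higher level (1456733_x_at) read 7.83 in WT and 8.30 in CD36KO, a difference of 0.47 or 1.38-fold, and 8.05% of the genes past the filter were as high or higher. The other (1450843_a_at) read 6.33 in WT and 7.23 in CD36KO, a difference of 0.90 or 1.87-fold, which was the highest among the 16 probe sets. The identifier of the first ends in _x_at, the array maker's mark for probes that may hybridize to other transcripts. The 1.5-fold call for Serpinh1 thus holds at the second probe set and not at the first.

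**Figure D2:**
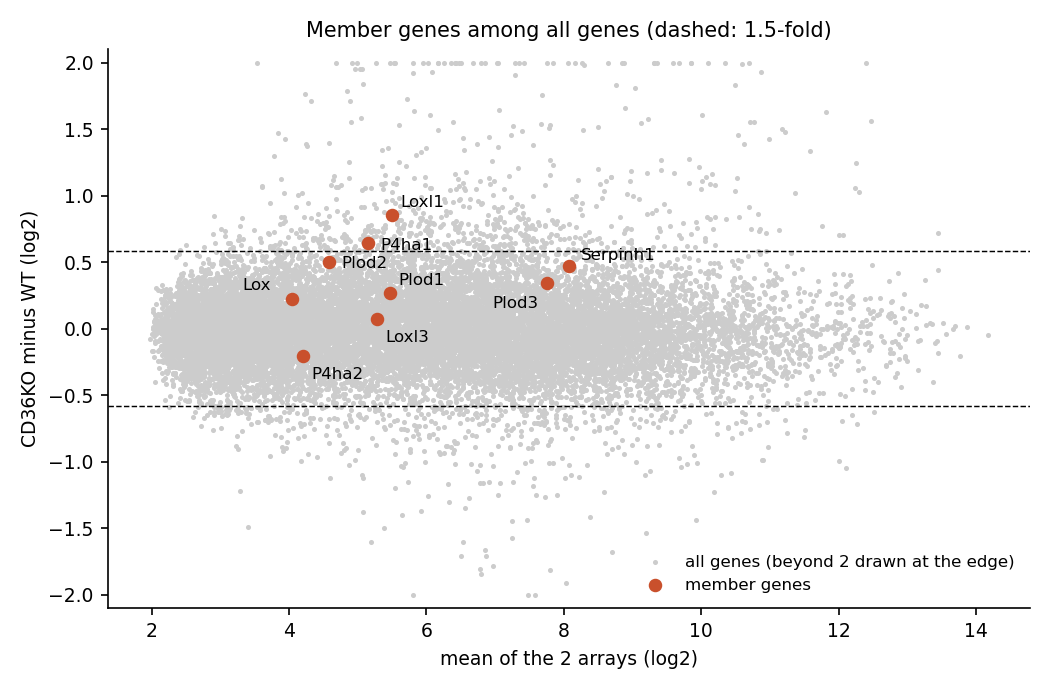
CD36KO minus WT difference (vertical axis, log2) against the mean of both arrays (horizontal axis, log2) for all 18194 genes (grey, 1 probe set per gene, differences beyond 2 drawn at the edge) and the 9 member genes (red). Loxl1 (0.85) and P4ha1 (0.64) lie above the upper dashed line at 1.5-fold, and P4ha2 (-0.21) is the only member below 0.

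Genes just outside the list that are related to these steps were mostly higher too. Of 17 such genes on the array 11 were above the filter, 9 of them were higher, 3 were at least 1.5-fold higher and 0 lower, with a median of 0.41. Sparc, Tgm2 and Tmem38b are among them without acting at the members' own steps, and the median is the value of Tgm2. The background over all 11981 genes above the filter was 5.31% for higher and 3.31% for lower calls at this fold, and their median was -0.0059. Sparc, a secreted collagen-binding glycoprotein, read 8.60 in WT and 9.58 in CD36KO, 1.97-fold higher, with its other probe sets at -0.05 and 0.90. Crtap, a subunit of the prolyl 3-hydroxylase complex, read 5.43 and 6.33, 1.87-fold higher. Colgalt2, a collagen galactosyltransferase, read 4.30 and 4.89, 1.51-fold higher, and passed the filter through the CD36KO pool alone. The median of this list was 0.25 with the mean over probe sets and also without the filter.

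Genes for collagen export and propeptide removal did not share one direction. Of 10 above the filter 5 were higher and 5 lower, and the median was 0.01. The 5 higher ones include Tango2 (0.05, and -0.25 at its other probe set), whose place among collagen export genes is not established. Mep1a, a meprin subunit of the brush border that can cleave procollagen, was 4.19-fold higher, from 8.64 to 10.70, and is also in the list of distal small intestine markers. Creb3l1, a transcription factor for secretory cargo, differed by 0.56 and the C-propeptidase gene Bmp1 by -0.54, with other probe sets of Bmp1 at -0.01 and 0.25. Neither of these reached 1.5-fold.

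Genes for the substrates of these enzymes and for partner proteins of the matrix had larger differences on these arrays. Of genes for fibrillar collagens, basement membrane collagens, elastic fibre proteins and their partners, 12 were above the filter. All were higher at the probe set of highest mean, 8 of them at least 1.5-fold, with a median of 0.91. Another probe set was lower for Eln, Col5a3 (-0.28, and 0.03 at the one used), Fbln5 (-0.15 and 0.21) and Col1a2 (-0.43 and 1.14). Other probe sets of Col1a1, Col3a1, Col4a1, Col5a1, Col5a2 and Fn1 were higher. Col1a1 read 6.35 in WT and 7.72 in CD36KO (2.58-fold, with 0.06 at its second probe set). Fn1, a partner, read 7.90 and 9.10 (2.29-fold, with 0.51 at its second), and Col3a1 9.57 and 10.74 (2.24-fold, with 1.26 at its second). The elastin gene Eln, named after its values were seen, was level at 6.11 in WT and 6.14 in CD36KO, while Loxl1 was 1.80-fold higher. The other probe set of Eln differed by -0.20. Whether the enzymes differ from their substrates could not be tested with 1 array per genotype. The median of the list of substrates and partners was 0.76 with the mean over probe sets.

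Among genes for cofactor supply 2 of 7 were at least 1.5-fold lower and 0 higher by that much, with a median of -0.04. Prolyl and lysyl hydroxylases need vitamin C and iron, and lysyl oxidases need copper. Both vitamin C transporters were lower: Slc23a2 read 8.25 in WT and 7.54 in CD36KO, 1.64-fold lower, and Slc23a1 read 6.45 and 5.84, 1.52-fold lower. Their second probe sets were lower by less, at -0.32 and -0.30. Averaged over probe sets, 0 of the 7 genes of this list was at least 1.5-fold lower. The copper importer Slc31a1 was 1.22-fold higher, with -0.03 at another probe set. Proximal small intestine markers were lower in the same pools, with a median of -0.97, and the part of this in the values of these transporters was not tested.

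Genes responding to TGF-beta, a growth factor that induces matrix genes, were mostly slightly higher. Of 9 above the filter 6 were higher, 0 were past 1.5-fold in either direction, and the median was 0.23. Bgn, a small proteoglycan, read 8.99 in WT and 9.53 in CD36KO, a difference of 0.54, with 0.53 and 0.62 at its other probe sets. Tgfb1 itself was higher by 0.45, with -0.02 at another probe set. Ltbp3, a latency protein of TGF-beta, differed by -0.35, while its other probe sets read between 0.13 and 0.16. Skil (-0.19) and Smad7 (-0.03), named after their values were seen, were lower, and also at their other probe sets (-0.05 and -0.20).

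**Figure D3:**
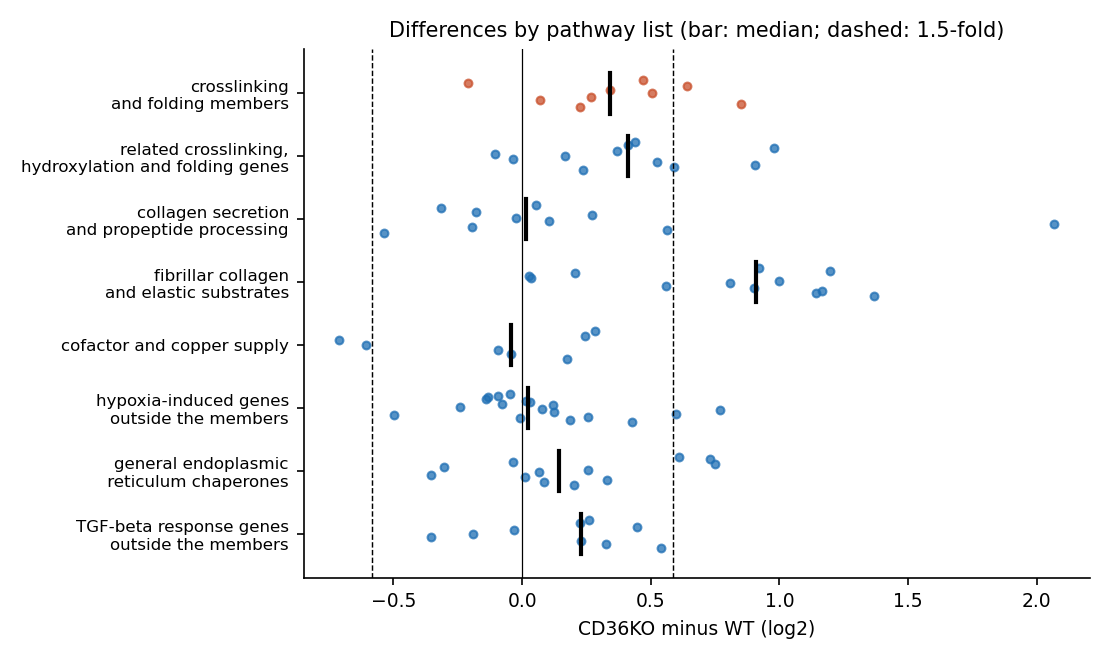
CD36KO minus WT difference (horizontal axis, log2) of each gene (points) by list (rows), with the list's median as a black bar and dashed lines at 1.5-fold. The 9 members (red, not filtered) have a median of 0.34, the substrates and partners one of 0.91, and the cofactor list one of -0.04. The blue lists hold genes above the expression filter.

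The proximal sequence before the start of transcription is shown for both prolyl hydroxylase subunits, which serve the same reaction, and for Serpinh1, the member with the highest single difference. The readings of P4ha1 and P4ha2 were 0.64 and -0.21. That of P4ha2 is below the filter, so a difference between the subunits is not established. Promoter sequences of 5 members (P4ha1, P4ha2, Plod1, Plod3 and Serpinh1) were matched by symbol in RefSeq, build GRCm38.p6. The 5-base core of the hypoxia response element, known from the regulation of several of these genes by low oxygen, was searched as ACGTG and as GCGTG on both strands in the 250 bases before the start. Matches are in capitals, a reverse-strand match appearing as CACGT or CACGC. P4ha1 is cut where the gene of the RefSeq table begins, leaving 151 bases.
P4ha1, chr10:59323046-59323196, plus strand: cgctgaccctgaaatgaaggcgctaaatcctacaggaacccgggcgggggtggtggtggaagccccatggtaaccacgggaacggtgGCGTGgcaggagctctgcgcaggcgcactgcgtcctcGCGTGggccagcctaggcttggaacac
P4ha2, chr11:54100674-54100923, plus strand: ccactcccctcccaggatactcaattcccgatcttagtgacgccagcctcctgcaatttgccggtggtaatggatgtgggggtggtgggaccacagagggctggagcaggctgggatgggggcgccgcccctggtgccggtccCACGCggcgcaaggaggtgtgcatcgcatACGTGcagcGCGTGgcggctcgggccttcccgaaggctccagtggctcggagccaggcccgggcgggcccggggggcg
Serpinh1, chr7:99353240-99353489, minus strand: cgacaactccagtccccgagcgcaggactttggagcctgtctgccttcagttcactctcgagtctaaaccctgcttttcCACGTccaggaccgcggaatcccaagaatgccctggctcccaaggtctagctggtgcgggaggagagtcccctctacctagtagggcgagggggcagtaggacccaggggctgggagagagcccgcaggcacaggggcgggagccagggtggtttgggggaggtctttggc

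In the full window ACGTG occurred in 4 of the 5 members' promoters, all but that of Plod1, and in 16.6% of all 32851 promoters. The match of P4ha1 lies in the 99 bases inside the gene, so 3 of 5 hold ACGTG before the gene start. GCGTG occurred in 4 of 5, all but that of Serpinh1, and in 28.2% of all. GC content was between 55.6% and 70% in the members' windows and had a median of 52.4% over all promoters. P4ha2 held 1 ACGTG and 2 GCGTG, and P4ha1 held 0 and 2 before the gene start. The SMAD box words CAGACA and GTCTAGAC occurred in 1 (Serpinh1) and 0 of 5, against 17.1% and 0.167% of all promoters. The word TATAAA occurred in 1 of 5 (Plod1), against 12.4%.

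Markers of fibroblasts and smooth muscle, the main makers of these proteins, were mostly higher in the same pool. So were markers of blood endothelium and macrophages. In bulk tissue a larger number of cells of a type and more RNA per cell cannot be told apart. Of 10 fibroblast markers above the filter 8 were higher and 5 at least 1.5-fold, with a median of 0.70, and their summed linear signal was 3250 in WT and 5620 in CD36KO. The 2 lower ones were Pdpn (-0.35) and Fbln1 (-0.07, with other probe sets at -0.38 and 0.13). Pdgfra was higher by 0.51, with other probe sets at -0.43 and 0.69. Mfap5 was below the filter in both pools. Lum (2.88-fold) and Dcn (2.40-fold, -0.08 at another probe set), proteoglycans that bind collagen fibrils, were highest. All 12 smooth muscle markers were higher at the probe set of highest mean and 5 at least 1.5-fold. Their median was 0.40 and the sums 15600 and 20800, led by Myl9 (1.88-fold) and Tagln (1.79-fold). Another probe set was lower for Tpm2 (-0.45, and 0.19 at the one used) and Acta2 (-0.04 and 0.15). For blood endothelium the median was 0.38, with 9 of 10 markers higher, 2 at least 1.5-fold, sums of 749 and 899, and Emcn and Pecam1 both 1.78-fold higher. Their WT values of 4.48 and 3.90 were under the filter, which both passed through the CD36KO pool alone. Macrophage markers had a median of 0.63 over 8 genes, all higher and 4 at least 1.5-fold, with sums of 1940 and 3130, led by Cd68 (3.28-fold, from 3.46 in WT, under the filter) and Lyz2 (2.16-fold), while Cd163 and Itgam were below the filter in both pools. The members' median was 0.34 unfiltered and 0.47 with the filter used for these lists, against 0.70 for fibroblast and 0.40 for smooth muscle markers. That filter left out Lox and P4ha2, the only lower member, and kept Plod2, which passed it through the CD36KO pool alone. The part of these markers in the members' values was not tested.

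Markers of position and of neighbouring tissue differed by more than the members did. The 10 pancreas acinar markers were all at least 1.5-fold higher, with a median of 1.70 and sums of 7660 and 24900, led by Cpa1 (5.29-fold) and Cpb1 (4.30-fold). For the distal small intestine the median was 2.08, with 8 of 10 markers at least 1.5-fold higher and sums of 7970 and 21900, led by the bile acid binding protein Fabp6 (102-fold) and the hormone Fgf15 (17.2-fold, from 3.47 in WT, under the filter). Slc10a2, counted among the 8, also passed the filter through the CD36KO pool alone, at 2.50 in WT and 4.58 in CD36KO. All 10 proximal markers were lower, 6 of them at least 1.5-fold, with sums of 33000 and 23000, among them Pdx1 (2.40-fold, level at its second probe set) and Trpv6 (2.23-fold). Gata4 was lower by this count (-0.52) and higher at its other probe set (0.16). For secretory epithelium the median was 1.03, with all 9 markers higher, 5 at least 1.5-fold, sums of 50300 and 69500, and Mmp7 (5.21-fold) and Clca1 (2.37-fold) leading. Zg16 was level (0.02), with other probe sets between -0.08 and 0.12. For general epithelial markers the median was 0.04, with 5 of the 9 higher and 1 past 1.5-fold, Cdx1 (1.57-fold higher), sums of 45200 and 46000, and Alpi 1.29-fold lower. The part of these lists in the members' values was not tested either.

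**Figure D4:**
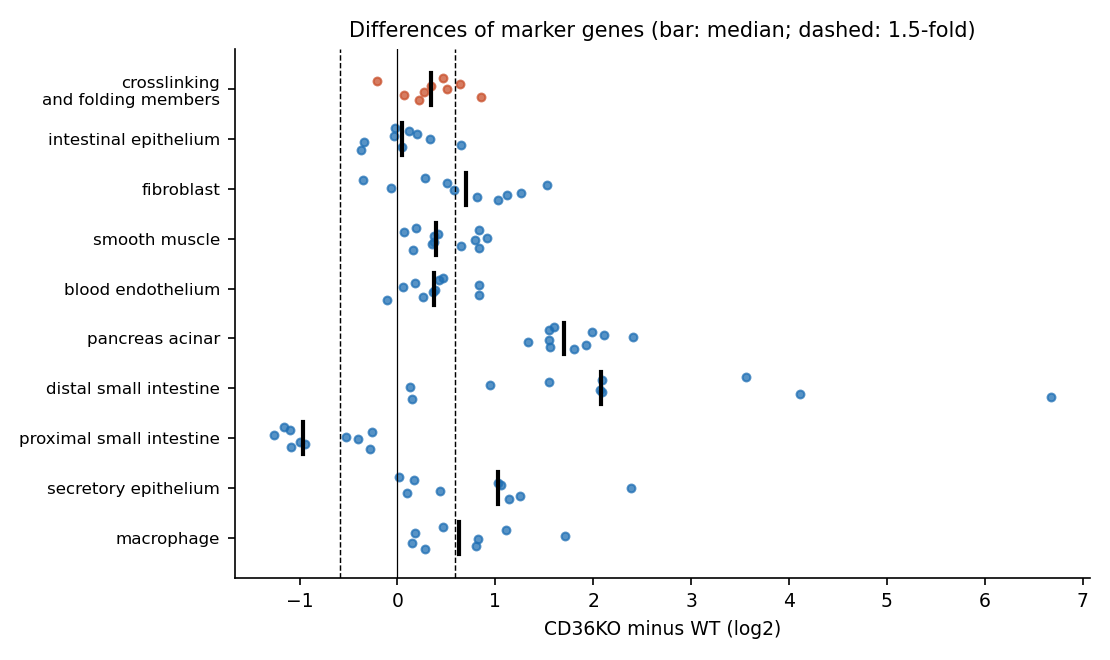
CD36KO minus WT difference (horizontal axis, log2) of marker genes above the expression filter (blue points) by list (rows), with medians as black bars, dashed lines at 1.5-fold and the 9 members in red for comparison. The fibroblast (0.70) and smooth muscle (0.40) medians lie to the right of 0, as the members' median does (0.34), and the general epithelial median is 0.04.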

How the data were processed

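RNA of 3 mice per genotype was extracted with TRIzol, pooled and labelled from 100 ng by the standard Affymetrix protocol, per the labels' protocols. The authors deposited 1 table of log2 values for 45101 probe sets on 2 arrays; the log base follows from the highest value of 14.2, and summarization and normalization: not given in the sources used here. Annotation gave 34958 probe sets 1 gene symbol, 932 several and 9211 none. Entrez identifiers of 34754 were found in the RefSeq table, which changed 0 symbols.

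Differences and counts past 1.5-fold were computed with no further normalization, in Python 3.11.15, pandas 2.3.3, NumPy 2.4.6 and statsmodels 0.14.6. The counting was tried on simulated data with shifts larger than any member's difference, which does not check calls near 1.5-fold. Members were not filtered; other lists used genes whose higher value reached 4.51. Members and lists were chosen with earlier results of these data known. Named were all members, the 3 genes of each pathway list and 2 of each marker list with the largest absolute difference, and Cd36. Alternatives were array centring, quantile normalization, lowess removal (fraction 0.3), filters, probe set choice and fold thresholds. Protein sequences were not used here.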

Additional observations from a re-analysis of the deposited data

How the results depend on the processing

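Centring the arrays, quantile normalization and removal of a lowess trend moved the 16 member probe set differences by between -0.0373 and 0.0384, changed 0 signs, and left the counts past 1.5-fold and the members' median within the limits set (1.5 times for a count, 0.1 for a log2 value). The choice of probe set, the filter and the threshold mattered more. The members' median was 0.47 with genes above the median filter, which left out Lox and P4ha2 and kept Plod2 through the CD36KO pool alone. It was 0.23 with the mean over probe sets, with which Loxl1 and Serpinh1, and not P4ha1, were at least 1.5-fold higher. With the probe set of smallest difference it was 0.071, and 0 genes were at least 1.5-fold higher. With a filter at the 75th percentile (6.60) only the probe sets of Plod3 and Serpinh1 remained. Of these 1, of Serpinh1, was at least 1.5-fold higher, and no background share was computed for this filter. At a lower threshold of 0.32 (log2) 7 probe sets (background 13%) and 5 genes (12.2%) were higher, and at 2-fold 0 (1.15%) and 0 (1.09%) were. Among 105 alternative values for the pathway lists 6 moved past these limits. A reversal was sought only for medians of at least 1.5-fold, which the list of substrates and partners alone had, and 0 were found. The smaller median for collagen export and propeptide removal, 0.014, became -0.032 with the mean over probe sets. No replicate could be left out, and no paired analysis was possible because each genotype has 1 array. Without detection calls, differences in the 7 member probe sets below the filter cannot be told from background.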

Other observations

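General chaperones of the endoplasmic reticulum, which serve all secreted proteins and not collagen in particular, differed unevenly. Of 12 above the filter 9 were higher, 3 at least 1.5-fold (background 5.31% of genes above the filter) and 0 lower by that much (3.31%). The median was 0.14, or 0.34 with the mean over probe sets. The disulfide isomerases Pdia3 (1.68-fold, 0.63 at its other probe set) and Pdia6 (1.66-fold, 0.44 at its other) and the chaperone partner Sdf2l1 (1.53-fold) were higher. In the same pools pancreas acinar, secretory epithelium and fibroblast markers had medians of 1.70, 1.03 and 0.70. The part of these markers in the chaperone values was not tested. Hsp90b1, singled out after its values were seen, differed by 0.07 at the probe set used and by 1.63 at its other.

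Of 18 hypoxia-induced genes outside the members, all above the filter, 10 were higher and 8 lower, with a median of 0.02, or 0.16 with the mean over probe sets. Egln3, an oxygen-sensing hydroxylase, was 1.70-fold higher (0.26 at its other probe set) and Ddit4 1.52-fold higher. They were the 2 at least 1.5-fold higher, against a background of 5.31% of genes above the filter. Car9, a carbonic anhydrase, differed by -0.50.

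Probe sets of a gene often disagreed on these arrays. Of 9012 genes with 2 or more probe sets, 39% had the same sign at all of them, with a median spread of 0.36. Among the 6 members with several probe sets, 4 (Loxl1, Plod1, P4ha1 and Serpinh1) had the same sign at all. The second probe sets of Loxl1, Plod1 and P4ha1 were below the filter. Spreads within the 6 members ran from 0.20 to 0.55 with a median of 0.45. Of 315 such genes above the filter that were at least 1.5-fold higher at the probe set of highest mean, 20% were so at every probe set, while 39% had a probe set at or below 0. Loxl1 and P4ha1 fall in neither group, as their second probe sets read 0.38 and 0.12.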
